A study of Mus musculus with 6 samples.

Results

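Forkhead transcription factors were examined in MLE15 cells in which the homeobox factor Nkx2-1 had been knocked down. A gene was counted as a member when its symbol on the array had the form of a forkhead gene of subfamilies Foxa to Foxs and its transcript cluster (the group of probes that reads 1 gene) carried that symbol alone. Foxa1 and Foxa2 were set aside, which left 41 of 19938 genes, in 18 subfamilies. For the 2 members with more than 1 transcript cluster, Foxf1 and Foxn3, the brighter was used. MLE15 is a mouse lung epithelial line derived from mice whose SV40 large tumor antigen is driven by the promoter of human Surfactant Protein C, so all arrays come from transformed cells. The knockdown group (Nkx2-1-shRNA, n = 3) was transduced with a mix of 3 short hairpin RNAs against Nkx2-1 in the lentiviral vector pLKO.1, and the non-silencing control (n = 3) with the empty vector. Both groups went through puromycin selection and are labelled 48 h, whereas the methods describe stable lines transduced independently of each other. Total RNA was measured on whole-transcript arrays, with values on a log2 scale.

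Forkhead proteins bind DNA through a winged-helix domain and are grouped into lettered subfamilies by the sequence of that domain. In the lung, Foxa factors act with Nkx2-1 on surfactant genes, Foxp1, Foxp2 and Foxp4 are repressors of the epithelium, Foxf1 is a mesenchymal and endothelial factor driven by hedgehog signals, Foxj1 directs the program of motile cilia and Foxi1 marks ionocytes. FoxO factors are held in the cytoplasm by Akt and related kinases and turn on genes of growth arrest, stress defence and cell death, and FoxM1 drives genes of mitosis.

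The knockdown itself was seen on every array. Nkx2-1 read 7.91, 7.98 and 7.83 after knockdown and 8.61, 8.61 and 8.59 with the empty vector. All shRNA lines lay below all control lines, with a mean at 61.8% of control (log2 fold change -0.69, SE 0.08, adjusted p 0.00155). An exact permutation test of 3 lines against 3 can give no p below 0.1, which is the value it gave. Arrays of a group correlated at 0.991 to 0.994 and arrays of different groups at 0.979 to 0.983. Epithelial identity was checked first: 8 of 10 epithelial markers were above the background limit of 4.35, a level set by chemosensory receptor genes that these cells should not use. Cdh1, the epithelial cadherin, read between 10.93 and 11.03 on all 6 arrays. Cldn7 and Lamp3 were below the limit in both groups. Of the 10 markers, 40.0% were called, beside 20.5% of all genes and 29.2% of genes above the limit. There were 3 that rose: Cldn4, a tight junction claudin, at a log2 fold change of 1.74, and the keratins Krt7 at 0.70 and Krt18 at 0.44. The 1 that fell was Sftpc, a surfactant gene, from a mean of 7.73 to 4.08, below the limit. Sftpb, another surfactant gene of the list, was at 0.14 and was not called.

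Sequences that bear on the comparison are shown first. The core of the Nkx2-1 binding site is CAAG, or CTTG on the other strand, and both were searched in the 250 bases before the transcription start of each member in RefSeq (GRCm38.p6, 5′ to 3′ on the strand of the gene). Windows were held for 26 members, 29 windows in all, and 6 of these members were called. None was held for the called members Foxq1 and Foxo4, so their promoters were not searched. Of the 29 windows, 25 (86.2%) carried the core, against 86.6% of all 32851 windows. The median GC content was 62.8% in windows of members and 52.4% in all windows, so these shares are not matched for base composition. The Foxc1 window, from chr13:31806396-31806645 on the plus strand, is shown because Foxc1 rose most of all members; it held no core. The Foxo1 and Foxo3 windows are shown because these paralogs moved in opposite directions, and capitals mark the core. Foxo1 lies at chr3:52268087-52268336 on the plus strand and held 1 match, and Foxo3 at chr10:42276696-42276945 on the minus strand and held 0.
Foxc1: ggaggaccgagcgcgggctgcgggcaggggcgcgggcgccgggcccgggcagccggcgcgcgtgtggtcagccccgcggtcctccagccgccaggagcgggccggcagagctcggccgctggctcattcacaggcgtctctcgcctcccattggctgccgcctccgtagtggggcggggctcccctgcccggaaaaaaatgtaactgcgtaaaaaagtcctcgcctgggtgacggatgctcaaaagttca
Foxo1: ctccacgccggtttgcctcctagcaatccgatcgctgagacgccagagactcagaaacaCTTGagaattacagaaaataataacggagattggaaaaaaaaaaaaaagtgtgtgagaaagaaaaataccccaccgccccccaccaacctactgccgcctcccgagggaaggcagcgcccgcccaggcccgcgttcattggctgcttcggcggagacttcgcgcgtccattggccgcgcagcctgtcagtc
Foxo3: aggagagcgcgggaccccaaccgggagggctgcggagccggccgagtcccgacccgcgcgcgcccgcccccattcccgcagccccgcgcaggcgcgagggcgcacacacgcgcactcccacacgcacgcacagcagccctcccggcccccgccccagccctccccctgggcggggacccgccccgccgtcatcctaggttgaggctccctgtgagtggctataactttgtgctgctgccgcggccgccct

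The forkhead core TAAACA, or TGTTTA on the other strand, can overlap the Nkx2-1 core by the letters TG. It was found in 4 of the 29 windows (13.8%), against 12.0% of all windows, again without matching for GC content. Of those 4, 3 were the 3 alternative starts of Foxp1 and the other was a Foxp3 start. The Foxp1 windows are therefore shown, on the minus strand of chr6:99520994-99521243, chr6:99266516-99266765 and chr6:99028299-99028548 in the order of transcription, with the forkhead core in capitals. They held 1, 2 and 1 matches. A match is only a run of letters, and no binding was measured here.
Foxp1 start 1: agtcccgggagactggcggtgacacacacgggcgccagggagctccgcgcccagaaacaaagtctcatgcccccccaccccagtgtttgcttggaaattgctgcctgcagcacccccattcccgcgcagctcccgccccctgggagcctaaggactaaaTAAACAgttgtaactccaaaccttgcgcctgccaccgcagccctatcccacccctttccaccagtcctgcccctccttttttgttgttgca
Foxp1 start 2: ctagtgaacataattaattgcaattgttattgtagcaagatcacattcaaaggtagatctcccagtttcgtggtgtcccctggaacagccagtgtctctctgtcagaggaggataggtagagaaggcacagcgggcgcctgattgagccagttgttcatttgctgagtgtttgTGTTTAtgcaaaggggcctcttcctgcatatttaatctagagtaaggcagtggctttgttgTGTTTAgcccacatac
Foxp1 start 3: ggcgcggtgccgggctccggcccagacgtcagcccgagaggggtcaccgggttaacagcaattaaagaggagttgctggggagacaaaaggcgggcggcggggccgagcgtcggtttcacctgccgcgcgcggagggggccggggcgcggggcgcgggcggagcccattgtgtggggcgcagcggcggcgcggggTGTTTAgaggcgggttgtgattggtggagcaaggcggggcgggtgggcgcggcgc

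The microRNA miR-200c rests on a seed, bases 2 to 8 of the mature strand, that pairs with target messages. Foxf2, Foxk1, Foxn2 and Foxp1 were the 4 members on the list of 770 predicted miR-200c targets used in the study, and no member was among its 40 predicted miR-1195 targets. The mature miR-200c-3p is given with its seed in capitals, from chr6:124718324-124718346 on the minus strand (RefSeq, GRCm38.p6).
mmu-miR-200c-3p: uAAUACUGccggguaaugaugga

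Reduction of Nkx2-1 shifted a minority of forkhead genes, at a share near that of all genes. At an adjusted p under 0.05 (limma, over all transcript clusters), 8 of 41 members were called, 19.5%, beside 20.5% of all genes. Among the 32 members above the background limit the share was 25.0%, beside 29.2% of all genes above it. There were 6 that rose (14.6%, beside 10.7% of all genes): Foxc1, Foxn1, Foxq1, Foxj2, Foxo4 and Foxo1. The 2 that fell (4.88%, beside 9.88% of all genes) were Foxp1 and Foxo3. The median log2 fold change was 0.01 over the members and -0.01 over all genes. In this limma fit no member reached the threshold of the study, a log2 fold change beyond 0.6 together with an adjusted p under 0.0005. Foxc1, Foxn1 and Foxq1 passed the fold change part, at 0.79, 0.70 and 0.68, but not the adjusted p. The count was also 0 by the methods' t-test, and it rose to between 1 and 3 in limma fits over fewer transcript clusters. It therefore depends on how many clusters are tested, and no share of all genes is given beside it. At an unadjusted p under 0.05 in the main limma fit there were 12 members (29.3%), beside 33.1% of all genes. A bulk array cannot tell apart fewer cells that use a gene from less of its RNA per cell.

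**Figure D1:**
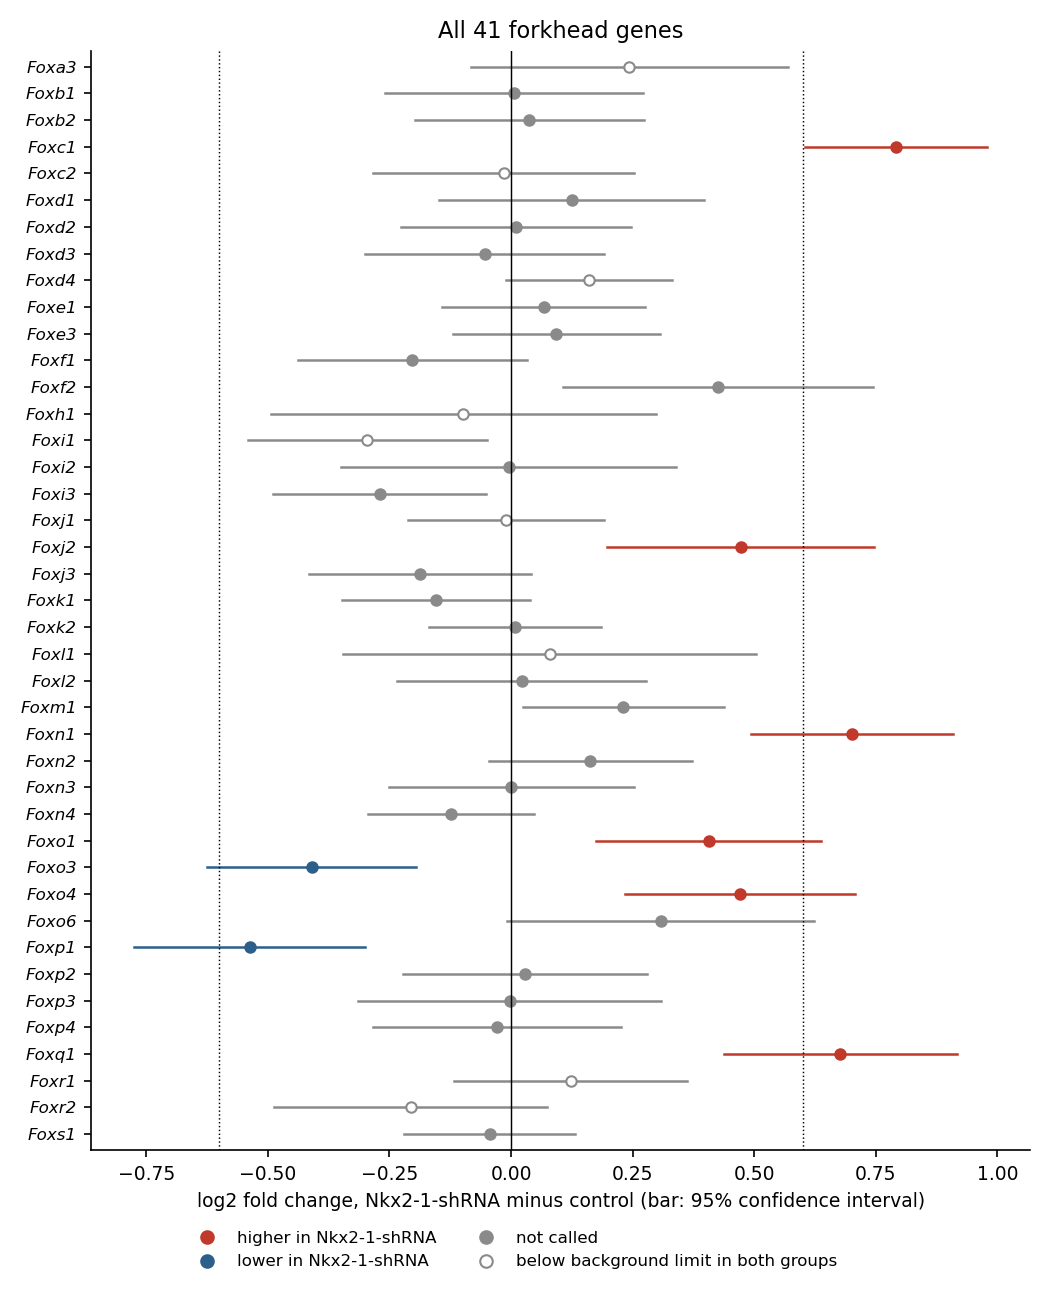
Log2 fold change (x axis, Nkx2-1-shRNA minus control, 3 arrays each) of all 41 forkhead genes, with bars for the 95% confidence interval and dotted lines at the 0.6 used by the study. The 6 members that rose lie between 0.41 and 0.79, Foxo3 and Foxp1 at -0.41 and -0.54, and open circles mark the 9 members that stayed below background.

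Of the 41 members, 32 had group means above the background limit in both groups and 9 in neither; none passed in 1 group alone. The 9 were Foxa3, Foxc2, Foxd4, Foxh1, Foxi1, Foxj1, Foxl1, Foxr1 and Foxr2, with group means from 3.53 to 4.32 and log2 fold changes from -0.30 to 0.24, none of them called. Among the 24 members above the limit that were not called, log2 fold changes ran from -0.27 to 0.43, and the 95% interval lay within 0.6 of 0 for 22. Of these 24, 6 lay less than 0.5 above the limit in both groups, where an array responds weakly to changes.

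Foxc1 and Foxq1, 2 of the members that rose, are neighbours in the genome. On mouse chromosome 13 the RefSeq annotation places Foxq1, Foxf2 and Foxc1 next to each other, followed by Gmds. Foxc1, a regulator of mesenchyme, eye and vessel development, read 6.13, 6.01 and 6.06 in the shRNA lines and 5.22, 5.35 and 5.25 in the controls. The groups were far apart relative to their spread, and the rise was 1.73-fold (log2 fold change 0.79, SE 0.08, adjusted p 0.00109). Foxq1, an epithelial factor known from hair and from the mucus cells of the stomach, read 7.40, 7.55 and 7.31 against 6.64, 6.72 and 6.87. Its lowest shRNA value stood above its highest control value, at 159.9% of control (log2 fold change 0.68, SE 0.10, adjusted p 0.00547). Foxf2, a factor of fibroblasts and pericytes that lies between them, read 5.04, 4.85 and 5.24 against 4.57, 4.82 and 4.47. These values did not overlap but missed the threshold (log2 fold change 0.43, SE 0.13, adjusted p 0.0781). With median centring of the arrays Foxf2 passed (adjusted p 0.0453), and it passed in 4 of the 16 alternatives in which it was tested. The calls of Foxc1 and Foxq1 held when any 1 array was left out.

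Most of the called genes around this trio lay in 1 run. Among the 20 nearest genes above the limit, 10 on each side, 7 rose, 0 fell and the median log2 fold change was 0.06. Of all 13563 genes above the limit, 29.2% were called, 2074 higher and 1891 lower. Gmds, the direct neighbour of Foxc1, was at 0.15 (adjusted p 0.385). Of the 7, 5 belonged to 1 run of serpin protease inhibitor genes: Serpinb6c was at 2.94, Serpinb6b at 2.31, Serpinb6a at 1.17, Serpinb9 at 0.93 and Serpinb9b at 0.87. These serpins are close relatives whose probes may not tell them apart, and their single values are uncertain. The paralog of Foxc1 on chromosome 8, Foxc2, was below the limit on both sides, with 4.09, 4.08 and 3.91 in the shRNA lines and 3.86, 4.05 and 4.22 in the controls.

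**Figure D2:**
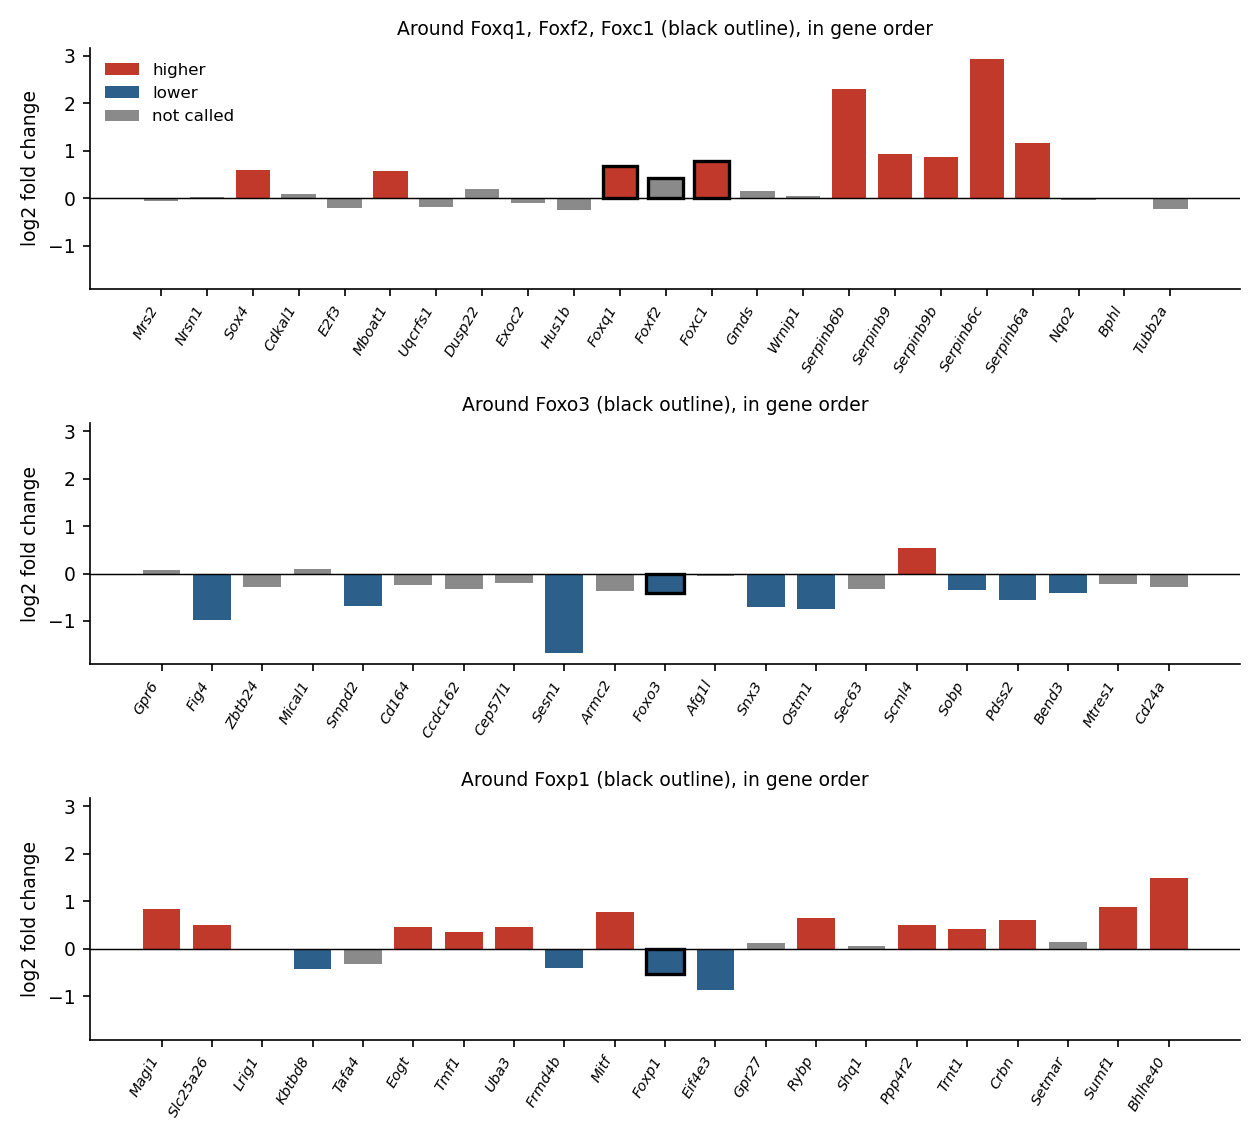
Log2 fold change (y axis, Nkx2-1-shRNA minus control) of forkhead genes (black outline) and of the 10 nearest genes above the background limit on each side, in gene order and not to distance. Serpinb genes rose beyond the Foxq1, Foxf2 and Foxc1 trio, 8 of the 20 neighbours of Foxo3 fell, and 12 of the 20 neighbours of Foxp1 rose although Foxp1 fell. Among all genes above the limit, 29.2% were called in either direction.

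FoxO genes split. Foxo1, the insulin-regulated member, read 7.80, 7.58 and 7.79 in the shRNA lines and 7.43, 7.29 and 7.23 in the controls. Its shRNA values all exceeded its control values (log2 fold change 0.41, SE 0.10, adjusted p 0.0317). Foxo4 read 6.94, 6.89 and 6.72 against 6.39, 6.50 and 6.26. It rose without overlap (log2 fold change 0.47, SE 0.10, adjusted p 0.0204). Foxo3, a member tied to stress resistance and longevity, went the other way, with 7.67, 7.40 and 7.56 against 7.97, 7.94 and 7.95. The controls lay within a narrow band above every shRNA value (log2 fold change -0.41, SE 0.09, adjusted p 0.0238). Foxo6 was at 0.31 (adjusted p 0.178).

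These FoxO calls were near the limit of 3 arrays a group. When each array was left out in turn, Foxo1 passed only without Nkx2-1-shRNA replicate 2 (adjusted p 0.0364) or control replicate 1 (0.0421), and reached 0.114 without Nkx2-1-shRNA replicate 1. Foxo4 passed only without Nkx2-1-shRNA replicate 3 (0.0309) or control replicate 2 (0.0312), and reached 0.080 without Nkx2-1-shRNA replicate 1. Foxo3 passed only without Nkx2-1-shRNA replicate 1 (0.0377) and was at 0.056 to 0.0684 without any other array; with median centring its adjusted p was 0.0528. Setting paralogs against each other on the same array removes such a shift of scale. The difference of Foxo1 minus Foxo3 was 0.82 log2 units between groups (95% interval 0.66 to 0.98) and that of Foxo3 minus Foxo4 -0.88 (-1.21 to -0.55), both without overlap of the groups. That lack of overlap was fixed beforehand, since each gene was already without overlap and Foxo3 moved the other way. It therefore adds no support to the single calls. The difference of Foxo1 minus Foxo4 was -0.06 (-0.42 to 0.30), with overlapping groups.

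**Figure D3:**
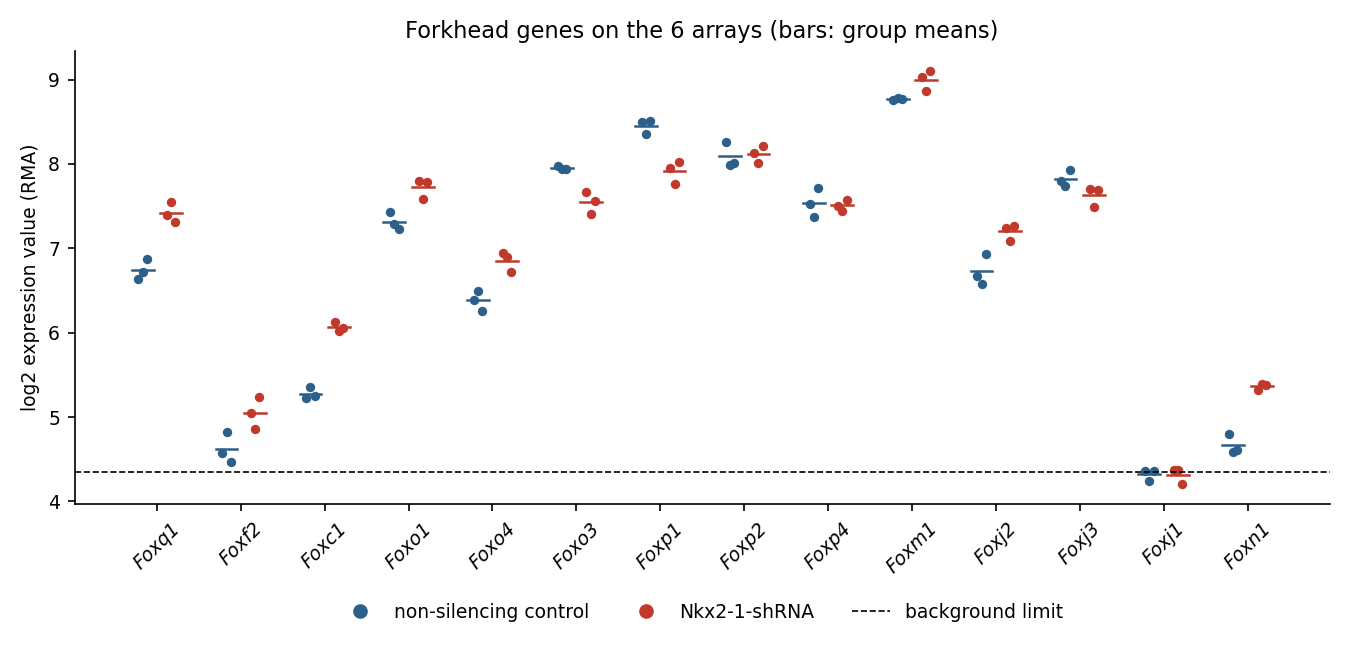
Log2 expression values (y axis) of 14 forkhead genes on the 6 arrays, blue for control and red for Nkx2-1-shRNA, with bars for group means and a dashed line at the background limit of 4.35. Foxc1 and Foxq1 stand clear of their controls, Foxo3 and Foxp1 lie below theirs, and Foxj1 stays at the limit in both groups.

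Genes that act on FoxO proteins, restraining or activating them, moved both ways. Of 20 measured FoxO regulators, 3 rose and 5 fell (40.0% called, beside 29.2% of genes above the limit), with a median log2 fold change of -0.15. Sgk1, a kinase that phosphorylates FoxO, fell from a mean of 8.39 to 7.30 (log2 fold change -1.09, adjusted p 0.00166). Sirt1, a deacetylase of FoxO, was at -0.58, and Akt1, the central FoxO kinase, at -0.54, both past the threshold. Ywhah, a 14-3-3 protein of the kind that retains phosphorylated FoxO, was at 0.71 and also passed. Pik3ca, the catalytic subunit upstream of Akt, was at -0.17 (adjusted p 0.273). In all, 12 of the 20 did not pass.

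FoxO targets spread more widely than the genes of the 7 other lists. Of 25 measured genes, 21 were above the limit. In all, 10 rose and 3 fell (52.0% called, beside 20.5% of all genes and 29.2% of genes above the limit), and the list median was 0.21. Gadd45a, a growth arrest gene of the DNA damage response, read 10.86, 10.83 and 10.90 in the shRNA lines and 8.13, 7.76 and 7.68 in the controls, a log2 fold change of 3.00 (adjusted p 6.77e-05). Txnip, an inhibitor of thioredoxin, was at 2.85 and Ccng2, an atypical cyclin of arrested cells, at 1.53. In the other direction Sesn1, a stress-induced regulator of mTOR signalling, was at -1.68. Cdkn1b, the cell cycle inhibitor p27, was at 0.42 (adjusted p 0.0183). These targets answer to other factors too, p53 among them, and FoxO activity was not measured. Sesn1 is also the second gene above the limit on one side of Foxo3, where 8 of the 20 nearest genes fell and 1 rose, with a median of -0.33. Of all 13563 genes above the limit, 1891 fell and 2074 rose.

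**Figure D4:**
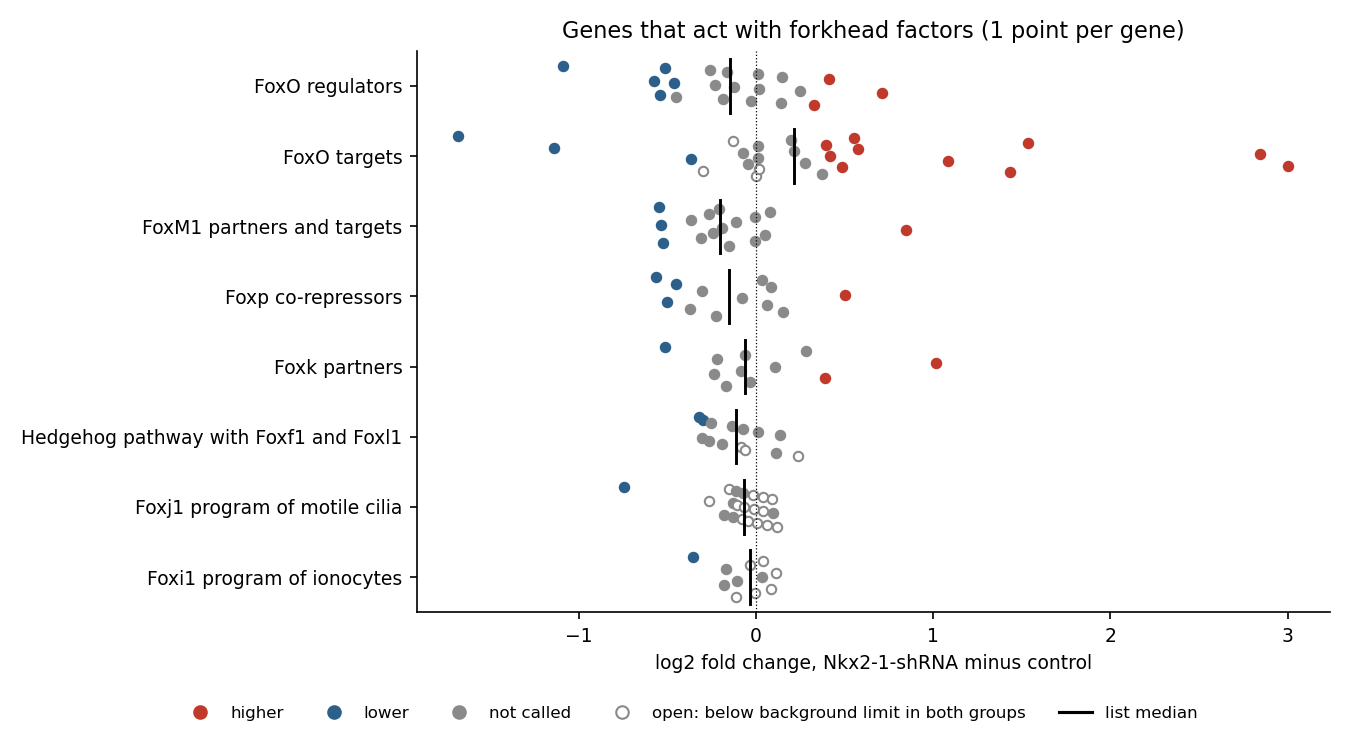
Log2 fold change (x axis, Nkx2-1-shRNA minus control) of genes that act with or downstream of forkhead factors, 1 point per gene in 8 lists, with a black line at each median. FoxO targets reach from -1.68 to 3.00, and most genes of the cilia and ionocyte lists are below the background limit (open circles).

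Of the lung repressors of the Foxp subfamily, Foxp1 alone passed the threshold. Foxp1 read 7.96, 7.76 and 8.03 in the shRNA lines and 8.50, 8.35 and 8.51 in the controls. Every shRNA value lay below every control value, at 68.9% of control (log2 fold change -0.54, SE 0.10, adjusted p 0.0128), and the call held when any 1 array was left out. Foxp2 read 8.13, 8.01 and 8.22 against 8.26, 7.99 and 8.02, and its groups overlapped (log2 fold change 0.03). Foxp4 read 7.50, 7.45 and 7.57 against 7.52, 7.37 and 7.72, again with overlap (-0.03, and 0.05 with median centring). Foxp3, the factor of regulatory T cells, was less than 0.5 above the limit and at 0.00. Within arrays, Foxp1 minus Foxp2 differed between groups by -0.57 (95% interval -0.78 to -0.35) and Foxp1 minus Foxp4 by -0.51 (-0.73 to -0.29), without overlap, whereas Foxp2 minus Foxp4 differed by 0.06 (-0.32 to 0.43).

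The fall of Foxp1 ran against its surroundings. Of the 20 nearest genes above the limit on chromosome 6, 12 rose and 3 fell, with a median log2 fold change of 0.44. Of all 13563 genes above the limit, 2074 rose and 1891 fell. Mitf, on one side, was at 0.79, and Eif4e3, on the other, at -0.88. Of the 4 predicted miR-200c targets in the family, 1 was called, Foxp1, a share near the 20.5% of all genes. Foxf2, given above, was higher in the shRNA lines, Foxk1 read 6.86, 6.79 and 6.99 against 7.02, 7.05 and 7.04, and Foxn2 read 8.08, 8.01 and 8.08 against 8.02, 7.87 and 7.79. These 3 were at 0.43, -0.15 and 0.16 and did not pass.

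Foxp proteins recruit the CtBP and NuRD co-repressors. Of 12 such genes, 1 rose and 3 fell, 33.3% called beside 29.2% of genes above the limit, with a median of -0.15. Ctbp1 was at 0.50. The deacetylases Hdac1 and Hdac2 were at -0.57 and -0.50, and the NuRD subunit Mta1 was at -0.45. All 12 were above the limit in both groups.

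Foxm1, the mitotic member, read 9.03, 8.86 and 9.10 in the shRNA lines and 8.75, 8.78 and 8.76 in the controls. The groups did not overlap, yet the difference missed the threshold (log2 fold change 0.23, SE 0.09, adjusted p 0.129). With median centring it passed at 0.0498, the only 1 of 17 alternatives in which it did. Of the 16 measured FoxM1 partners and targets, 1 rose and 3 fell (25.0% called, beside 20.5% of all genes and 29.2% of genes above the limit), and the median was -0.20. Cdc25b, a phosphatase that activates Cdk1, was at 0.85 (adjusted p 0.00118). Plk1, a mitotic kinase, was at -0.55, Kif20a, a kinesin of cytokinesis, at -0.53, and Skp2, a ubiquitin ligase subunit, at -0.52. Ccnb2, a mitotic cyclin, was at -0.37 (adjusted p 0.0972).

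The Foxj and Foxn subfamilies each held 1 member that rose. Foxj2, a broadly expressed activator, read 7.24, 7.09 and 7.27 against 6.67, 6.57 and 6.94. The groups did not overlap, though the highest control came close to the lowest shRNA value (log2 fold change 0.47, SE 0.12, adjusted p 0.0341). Foxj2 passed only without control replicate 3 (adjusted p 0.0162) when 1 array was left out, and its adjusted p was at most 0.111, without Nkx2-1-shRNA replicate 1. Foxj3, its closest relative, was at -0.19 (adjusted p 0.256), and Foxj2 minus Foxj3 differed by 0.66 (95% interval 0.50 to 0.82) without overlap. Foxj2 and Foxj3 were each already without overlap, in opposite directions, so that outcome was fixed beforehand. Foxj1 read 4.37, 4.37 and 4.21 against 4.36, 4.25 and 4.36, with group means below the limit. Of the 21 measured genes of the Foxj1 program of motile cilia, 7 were above the limit and 1 was called (4.76%, beside 20.5% of all genes): Ccno, a cyclin-like factor of multiciliated cells, at -0.74. Mcidas, the switch to the multiciliated state, was at -0.13 (adjusted p 0.401). None of the 8 ciliated cell markers was called, beside 20.5% of all genes, but only 1 of the 8 was above the limit. Tekt1, Dnah5, Rsph1, Ccdc39 and Dynlrb2 are on both lists, so the markers are not a separate observation.

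Foxn1, known for the thymic epithelium and hair follicle, read 5.32, 5.39 and 5.38 in the shRNA lines and 4.80, 4.58 and 4.61 in the controls. The shRNA lines agreed within 0.1 of each other and all exceeded the controls (log2 fold change 0.70, SE 0.09, adjusted p 0.00262), and the call held without any 1 array. The control mean, 4.66, was near the limit. Foxn2, Foxn3 and Foxn4 were at 0.16, 0.00 and -0.12. The second transcript cluster of Foxn3 was at -0.13 (adjusted p 0.430). Foxn2 minus Foxn3 differed by 0.16 (95% interval -0.08 to 0.40).

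**Figure D5:**
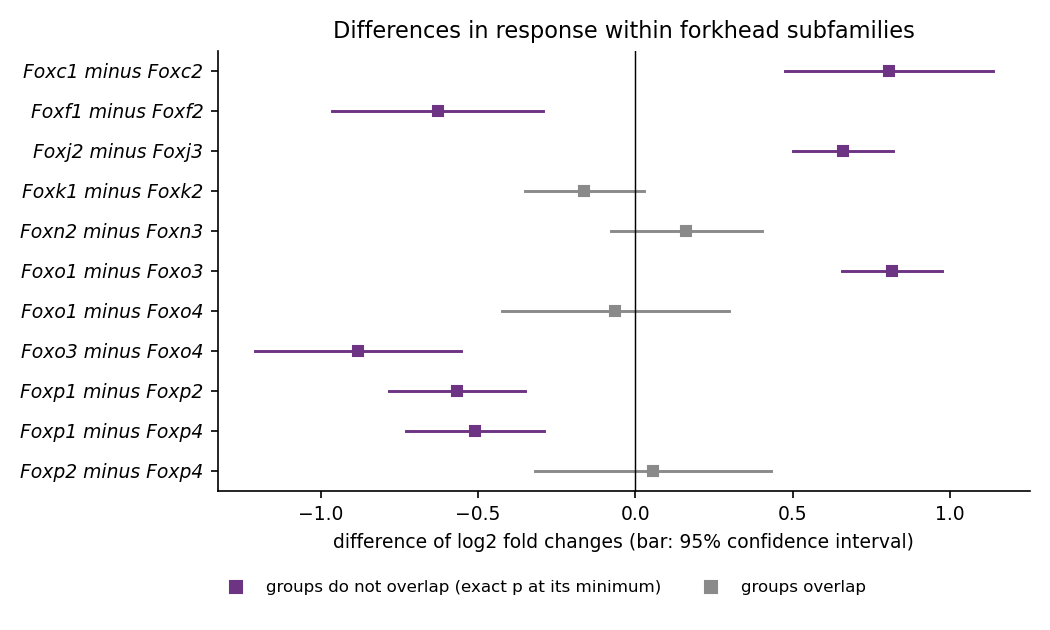
Difference between groups of the within-array gap of 2 forkhead paralogs (x axis, log2 units, bars for the 95% interval) for 11 pairs. In 7 pairs the 3 Nkx2-1-shRNA lines and the 3 controls did not overlap, with Foxo3 minus Foxo4 at -0.88 and Foxo1 minus Foxo3 at 0.82.

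Paralogs were set against each other in 11 pairs with exact two-sided permutation tests. The smallest p that 3 lines against 3 can give, 0.1, was reached by 7 pairs, and adjusted over the 11 pairs it was 0.157, so no pair could pass. The 7 were those of Foxo1 and Foxo4 with Foxo3, those of Foxp2 and Foxp4 with Foxp1, Foxj2 with Foxj3, Foxc1 with Foxc2 and Foxf1 with Foxf2. For the pairs with Foxo3 and for Foxj2 with Foxj3, the lack of overlap followed from the values of the single genes. Foxc1 minus Foxc2 differed by 0.81 (95% interval 0.48 to 1.14), with Foxc2 below the limit.

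Foxf1, the hedgehog-driven mesenchymal member, read 4.45, 4.58 and 4.70 in the shRNA lines and 4.68, 4.88 and 4.77 in the controls. The groups overlapped (log2 fold change -0.20, adjusted p 0.232), and its second transcript cluster was at -0.05. Foxf1 minus Foxf2 differed by -0.63 (95% interval -0.96 to -0.29). Of the 14 measured genes of the hedgehog pathway, 2 fell and 0 rose (14.3% called, beside 20.5% of all genes), Disp1, which releases the ligand, at -0.32 and the ligand gene Shh at -0.30, and 0 fell with median centring. Fibroblast markers were 5 of 9 above the limit, with none called. Their summed log2 level was 39.78 to 39.93 in the shRNA lines and 39.09 to 39.79 in the controls, ranges that overlapped. Those above it were Col1a1, Col1a2, Col3a1, Pdgfra and Acta2, whereas Dcn, Lum, Pdgfrb and Tcf21 were below the limit in both groups.

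Endothelial markers were 4 of 8 above the limit. Their summed level was 33.26 to 34.26 in the shRNA lines and 34.78 to 35.64 in the controls, ranges that did not overlap. Tek, an endothelial receptor, fell from 5.77 to 3.77 (log2 fold change -2.00), by far the largest change of the list, whose median was -0.01. Vwf was at 0.41, and Tie1 and Cldn5 were above the limit but not called. Pecam1, Cdh5, Kdr and Emcn were below the limit in both groups. Leukocyte markers were 2 of 6 above the limit, with summed levels of 24.87 to 25.99 and 25.16 to 26.31. The 2 were Cd68 and Cd3e, whereas Ptprc, a surface marker of leukocytes, was below the limit, as were Itgam and Lyz2. The only one called, Csf1r, a macrophage growth factor receptor, was at 0.51 (adjusted p 0.00905) but below the limit in both groups. Ciliated cell markers were 1 of 8 above the limit, at 29.98 to 30.31 and 29.77 to 30.31. The part of other cells in the results above was not tested.

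Foxk1 and Foxk2, which act with the BAP1 and Sin3 complexes on chromatin, were at -0.15 and 0.01, and neither passed. Foxk1 minus Foxk2 differed by -0.16 (95% interval -0.35 to 0.03). Among 11 measured Foxk partners, 2 rose and 1 fell, 27.3% called beside 29.2% of genes above the limit: Sap30, a Sin3 subunit, was at 1.02, Dvl1, a Wnt signal protein carried to the nucleus by Foxk, at 0.39, and Hcfc1, a cofactor in the BAP1 complex, at -0.51. Bap1 itself was at -0.04 (adjusted p 0.797).

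Foxa3, the relative of the Foxa factors that work with Nkx2-1, read 4.26, 4.23 and 3.82 in the shRNA lines and 3.76, 3.99 and 3.83 in the controls. It was below the limit in both groups, with overlapping values. Foxa1 and Foxa2, set aside here, were both lower in the shRNA lines, at -0.85 (adjusted p 0.00434) and -0.44 (adjusted p 0.0375). Foxi1, the ionocyte factor, was below the limit, and Foxi3 was at -0.27 (adjusted p 0.0986). Of the 11 measured genes of the ionocyte program, 0 rose and 1 fell (9.09% called, beside 20.5% of all genes): Ascl3 was at -0.35, near the limit, and 0 fell with median centring. Cftr, the chloride channel, was listed below the limit on every array. The remaining members above the limit were developmental factors. Foxb1 and Foxb2 were at 0.01 and 0.04, Foxd1, Foxd2 and Foxd3 at 0.12, 0.01 and -0.05, and Foxe1 and Foxe3 at 0.07 and 0.09. Foxi2 was at -0.01, Foxl2 at 0.02 and Foxs1 at -0.04, and none of these 10 passed.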

How the data were processed

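Total RNA from 3 Nkx2-1-shRNA and 3 non-silencing control lines of MLE15 was hybridised to Affymetrix whole-transcript mouse arrays. Values were summarized by the authors with RMA (background correction, quantile normalization, probe set summary) in Affymetrix Expression Console 1.1, per the submitters' processing notes, and the deposited log2 values were used as they stand. Array precision rests on the number of arrays, since an array gives no counts. Of 35557 transcript clusters, 21789 carried 1 symbol, giving 19938 genes; of several for a gene, the one brightest on average over the 6 arrays stood for it. The comparison used limma 3.58.1 in R 4.3.3 (4 residual and 2.86 prior degrees of freedom, Benjamini-Hochberg over all transcript clusters). The members and the gene lists were chosen with earlier results of these data known. The background limit is the 95th percentile of 1243 chemosensory receptor transcript clusters. Genes were named by role and rule: values of all arrays for called members and for Foxa3, Foxj1, Foxf1, Foxm1, the Foxp trio and predicted miR-200c targets; of each list the first member and up to 4 called members with the largest change. The serpins, other genes beside a member and marker genes were named after their values were seen. Marker lists covered epithelial, fibroblast, endothelial, leukocyte and ciliated cells. Neighbours came from RefSeq gene order, and promoter windows on chromosome 18 were not used here. On simulated data limma recovered 4%, 34%, 64% and 96% of log2 changes of 0.4, 0.6, 0.8 and 1.6 (50 each), with 13 false calls. Only 50 of 35557 simulated transcript clusters were changed at each size, far fewer than the 16.8% called in the data. The recovered shares are therefore not detection rates for the comparison itself. Alternatives were 2 kinds of t-test, other priors and weights, other normalizations, filters and thresholds, a block for replicate number, averaged transcript clusters of a gene, the 90th percentile for background and leaving out each array. P-values measure the spread between these lines. Genes without a symbol of their own on the array were not analysed here.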

Additional observations from a re-analysis of the deposited data

How the results depend on the processing

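Foxc1 passed the threshold in all 17 alternatives in which it was tested, with adjusted p from 5.61e-05 to 0.0195; Foxq1 and Foxp1 passed in 16 of 17 and Foxn1 in 15 of 16, each missing only in the t-test for unequal variances (adjusted p 0.0502, 0.0877 and 0.0695). Foxj2, Foxo1, Foxo3 and Foxo4 passed in 10, 10, 9 and 11 of 17. No log2 fold change that was called changed sign. There were 4 higher and 1 lower member by the methods' t-test and 1 and 0 by the t-test for unequal variances. With median centring there were 8 and 1, after a shift of 0.08 log2 units in the array medians. Of all transcript clusters 16.8% were called by limma and 11.3%, 4.48% and 16.5% under these settings, in that order. The methods' t-test called Foxc1, Foxn1, Foxq1, Foxp1 and Foxd4, of which Foxd4 was below the background limit and not called by limma. Foxj2, Foxo1, Foxo3 and Foxo4 missed in both t-tests. With each array left out in turn there were 3 to 4 higher and 1 to 2 lower members (9.86% to 14.0% of all transcript clusters), and an adjusted p under 0.01 left 3 and 0 (7.74%). At the threshold of the study the count of 0 became 1 among transcript clusters above the median level, 1 among those above the background limit and 3 among those with 1 gene symbol, where fewer transcript clusters were tested. Nkx2-1 stayed at -0.69 but missed the threshold in the t-test for unequal variances (adjusted p 0.0550). The mean of the transcript clusters of a gene moved Foxn2 minus Foxn3 to 0.23. The cause of these moves was not tested. With the 90th percentile as background limit 39 members were above it. The arrays share replicate numbers, but the deviations of same-numbered arrays correlated at 0.06, 0.14 and -0.03, so the numbers were not taken as pairs; with a replicate block there were 5 higher and 2 lower members (14.2% of all transcript clusters), and Foxo1 missed (adjusted p 0.0533).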
